A study of Mus musculus with 38 samples.

Results

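The genes described here are 8 acute phase genes of the mouse: Ptx3, Serpina3f, Serpina3g, Serpina3n, Lcn2, Saa3, Hp and C3. They were found by symbol in a count table of 35682 genes from cardiomyocytes, endothelial cells (ECs) and fibroblasts of the heart, and all 8 were present. They were picked for the rise of Ptx3 and Serpina3f in infarcted fibroblasts, so the fibroblast values of Control-AMI and Sham are given below as a description with no test. All mice were male C57BL/6 of 8 to 12 weeks. Sham mice had oral vehicle (DMSO in saline) every day for 6 weeks and an open-chest operation without ischemia. Control-AMI mice, labelled Control_IR, had the same vehicle, then 30 min of ligation of the left anterior descending artery and 2 h of reperfusion. EMPA–Pre-AMI mice, labelled EMPA_IR, had empagliflozin (EMPA), an inhibitor of the sodium-glucose cotransporter SGLT2, at 10 mg/kg/d for 6 weeks before the same ischemia and reperfusion. The tissue below the suture was digested, cardiomyocytes were pelleted at low speed, and ECs (CD45- CD31+) and fibroblasts (CD45- CD31- CD90+) were sorted, with 2 hearts pooled in each library. The antibody that the methods list is against CD45.1, whereas C57BL/6 mice usually carry CD45.2, and whether the gate removed leukocytes was not tested. Sham had 4 libraries of each population. Control-AMI had 5 of cardiomyocytes and 4 each of ECs and fibroblasts, and EMPA–Pre-AMI had 4, 5 and 4. The labels do not say which libraries share hearts, and p-values measure the spread between these libraries.

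The acute phase response is the change in secreted proteins that follows infection or tissue injury. Interleukin-6 acts through STAT3, interleukin-1 and tumor necrosis factor act through NF-kappaB, and C/EBP factors act with both at the promoters of acute phase genes. The liver makes most of these proteins for the plasma, whereas Ptx3, Lcn2, Saa3 and C3 are also made by stromal and endothelial cells at the site of injury. Pentraxin 3 (Ptx3) is a long pentraxin that binds complement components and microbes. The Serpina3 genes are mouse relatives of human alpha-1-antichymotrypsin, an inhibitor of neutrophil serine proteases. Lipocalin 2 (Lcn2) binds iron-carrying siderophores, serum amyloid A3 (Saa3) is an apolipoprotein made outside the liver, haptoglobin (Hp) binds free hemoglobin, and C3 is the central complement component.

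All positions are on GRCm39. Ptx3 lies at chr3:66127331-66133226 and has 3 exons. Serpina3f (chr12:104180772-104187388), Serpina3g (chr12:104202386-104208203) and Serpina3n (chr12:104372810-104380597) lie in the Serpina3 gene cluster of chromosome 12. Lcn2 lies at chr2:32274645-32278264, Saa3 at chr7:46361422-46365576, Hp at chr8:110301759-110305804 and C3 at chr17:57510964-57535155. Only the 3′ end of a transcript was read, so paralogs with similar ends can share reads. Of the 31-base words in the last 500 bases of Serpina3f, 13.8% also occur in another gene, most of them in Serpina3g, and for Serpina3g the share was 17.0%. It was 6.38% for Saa3, 1.70% for Serpina3n and 0 for Ptx3, Lcn2, Hp and C3. Values of Serpina3f and Serpina3g are therefore uncertain as to how reads of one were divided from those of the other.

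The windows of 250 bases before the start of the canonical transcript are shown for 5 members, 4 that were higher in the AMI fibroblasts or ECs and the paralog Serpina3g, because acute phase genes are known to be switched on through such sites. The sequences were read from the GRCm39 genome, 5′ to 3′ on the strand of the gene. Capitals mark matches, on either strand, to a C/EBP motif (TTGCNNAA), a STAT motif (TTCNNNGAA) or the NF-kappaB motif (named kappaB here).
Ptx3, chr3:66127081-66127330, plus strand: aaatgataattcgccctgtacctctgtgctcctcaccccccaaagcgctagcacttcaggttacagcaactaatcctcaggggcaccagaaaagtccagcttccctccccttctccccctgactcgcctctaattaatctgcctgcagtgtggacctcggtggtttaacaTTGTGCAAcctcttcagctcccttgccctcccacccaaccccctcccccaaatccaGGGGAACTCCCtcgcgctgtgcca
Serpina3f, chr12:104180522-104180771, plus strand: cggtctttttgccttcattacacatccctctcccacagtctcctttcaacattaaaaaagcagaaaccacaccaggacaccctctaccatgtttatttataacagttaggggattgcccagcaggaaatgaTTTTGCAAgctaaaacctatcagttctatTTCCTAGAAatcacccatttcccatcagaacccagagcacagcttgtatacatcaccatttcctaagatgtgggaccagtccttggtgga
Serpina3g, chr12:104202136-104202385, plus strand: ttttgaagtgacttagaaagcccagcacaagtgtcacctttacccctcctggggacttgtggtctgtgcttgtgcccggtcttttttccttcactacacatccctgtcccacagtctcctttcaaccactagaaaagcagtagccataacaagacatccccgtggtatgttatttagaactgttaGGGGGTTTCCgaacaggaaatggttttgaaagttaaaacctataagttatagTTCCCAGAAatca
Serpina3n, chr12:104372560-104372809, plus strand: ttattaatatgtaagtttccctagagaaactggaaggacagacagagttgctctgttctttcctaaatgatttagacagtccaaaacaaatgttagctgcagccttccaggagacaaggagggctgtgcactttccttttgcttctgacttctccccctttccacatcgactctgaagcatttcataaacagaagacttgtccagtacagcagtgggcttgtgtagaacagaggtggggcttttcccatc
C3, chr17:57535156-57535405, minus strand: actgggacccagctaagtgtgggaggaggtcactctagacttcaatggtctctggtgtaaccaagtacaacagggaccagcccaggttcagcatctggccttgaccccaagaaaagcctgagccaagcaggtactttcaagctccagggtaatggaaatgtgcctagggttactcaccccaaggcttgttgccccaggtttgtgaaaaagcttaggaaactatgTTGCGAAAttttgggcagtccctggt

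In the Ptx3 window, 2 overlapping kappaB matches span bases 24 to 14 before the start and a C/EBP match lies at bases 80 to 73. Serpina3f held a C/EBP match at bases 119 to 112 and a STAT match at bases 90 to 82. Serpina3g held a kappaB match at bases 65 to 56 and a STAT match at bases 13 to 5. The windows of Serpina3f and Serpina3g could be aligned over 172 positions with the same base at 83.7% of them, with the aligned stretch ending at base 78 in Serpina3f and at base 1 in Serpina3g. The aligned stretch holds the STAT match of both genes. In C3 a C/EBP match lies at bases 26 to 19, and the Lcn2 window held a kappaB match at bases 202 to 193 and a C/EBP match at bases 158 to 151. No match was found in the windows of Serpina3n, Saa3 and Hp. The kappaB motif was present in 3 of the 8 members and in 4.23% of 21770 promoters of protein-coding genes of the same length. The C/EBP motif was present in 4 members and 9.34% of promoters, the STAT motif in 2 and 7.70%, and the AP-1 motif (TGANTCA) in none of the 8 and 6.17%. A match is a description of the sequence, and binding was not measured.

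Depth was 2031726 to 4509305 counts in cardiomyocyte libraries, 1352528 to 2195319 in EC libraries and 1946070 to 2821386 in fibroblast libraries. A count of 0 allows up to 3 counts, which is 0.665 to 1.48, 1.37 to 2.22 and 1.06 to 1.54 CPM (the counts of a gene scaled to a common library size) in the same order. The summed markers of cardiomyocytes, ECs and fibroblasts were each highest in the population of that name, and markers of the other cells were present in all. Over all groups, the summed CPM of 11 fibroblast markers (of which ECs also express Vim and Itgb1) was 13153 to 19929.5 in fibroblasts, 941 to 5178 in cardiomyocytes and 1329 to 6636 in ECs. The sort left a pair of libraries rich in 16 leukocyte markers, Control-AMI replicate 3 of ECs (411 summed CPM, others at most 97) and Sham replicate 2 of fibroblasts (321, others at most 23.3). In bulk libraries, fewer cells of a type and less RNA per cell cannot be told apart. The labels place the libraries on 4 sample-sheet lists, whose meaning they do not state. List 1 held fibroblasts alone, namely Sham replicates 2, 3 and 4 and replicate 4 of both AMI groups. Among ECs, list 4 held Control-AMI replicates 1 and 4 alone.

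In Sham hearts, C3, Serpina3n and Hp were highest in fibroblasts, and Lcn2 was lowest there. These levels are CPM scaled over all 38 libraries, a scale used only for comparing populations. Tests are edgeR's quasi-likelihood test, FDR is the p-value adjusted by Benjamini-Hochberg over all genes tested, and a gene is called where the FDR is under 0.05. C3 was at 1372, 1140.1, 1238 and 1095 CPM in the 4 fibroblast libraries, 392.1, 221, 317 and 393 in cardiomyocytes and 38, 70.1, 16.2 and 14.3 in ECs. The 3 populations did not overlap, and fibroblasts exceeded ECs by a log2 difference of 5.11 ± 0.56 (SE), edgeR FDR 5.81e-09, and cardiomyocytes by 1.87 ± 0.48 (SE), edgeR FDR 0.00187. Serpina3n was at 32.9, 25.6, 30.7 and 33.7 CPM in fibroblasts, 9.0, 8.21, 10.9 and 8.04 in cardiomyocytes and 1.82, 3.35, 0.613 and 0.434 in ECs. It had the same order, with log2 differences of 4.20 ± 0.59 (SE), edgeR FDR 3.54e-07 between fibroblasts and ECs and 1.77 ± 0.50 (SE), edgeR FDR 0.00403 between fibroblasts and cardiomyocytes. EC libraries were below cardiomyocyte libraries for both C3 (-3.24 ± 0.52 (SE), edgeR FDR 3.94e-06) and Serpina3n (-2.43 ± 0.67 (SE), edgeR FDR 0.00283). The fibroblast marker sums were 3102 to 4067 in Sham cardiomyocytes and 1444 to 2291 in Sham ECs. The part of fibroblast RNA in these levels was not tested.

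Saa3 was at 42.6, 64.8, 47 and 45.9 CPM in Sham fibroblasts, 25.5, 35.1, 40.1 and 32.1 in ECs and 12.2, 15.9, 20.3 and 20.1 in cardiomyocytes. Fibroblasts (1.55 ± 0.27 (SE), edgeR FDR 1.06e-05) and ECs (0.96 ± 0.28 (SE), edgeR FDR 0.00341) were above cardiomyocytes, and fibroblasts and ECs did not pass the test (0.59 ± 0.25 (SE), edgeR FDR 0.0602, and 0.0487 without EC Sham replicate 3). Lcn2 had 9, 9, 9 and 6 counts in Sham ECs, 2, 8, 5 and 0 in cardiomyocytes and 2, 0, 1 and 0 in fibroblasts. Fibroblasts were lower than ECs (-3.54 ± 0.93 (SE), edgeR FDR 0.00212) and lower than cardiomyocytes (-3.27 ± 1.02 (SE), edgeR FDR 0.00777, and 0.0614 without cardiomyocyte Sham replicate 2). Hp held 8, 4, 11 and 8 counts in Sham fibroblasts, 0 in all 4 EC libraries and 0, 0, 0 and 2 in cardiomyocytes. It passed the test between fibroblasts and ECs (edgeR FDR 0.000306) and between fibroblasts and cardiomyocytes (edgeR FDR 0.0312), the latter with FDR 0.089, 0.0993, 0.0802 and 0.0754 when cardiomyocyte Sham replicates 1, 2 or 3 or fibroblast Sham replicate 3 were left out. Ptx3 was low in Sham hearts, with 5 to 18 counts in fibroblasts, 1 to 8 in ECs and 1 to 4 in cardiomyocytes. Ptx3 and Serpina3f were picked for a rise from these Sham fibroblast libraries, so their values there are a description. For Ptx3 the pair of ECs and cardiomyocytes did not pass the edgeR test. Serpina3f and Serpina3g had at most 7 counts in any Sham library.

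Of the 8 members, 4 were called between Sham fibroblasts and ECs, 5 between fibroblasts and cardiomyocytes and 3 between ECs and cardiomyocytes. Over all 12085 genes in this model the percentages called were 37.7%, 47.3% and 52.9%, so a share of members this large is not particular to them. The 8 include Ptx3 and Serpina3f, picked with the Sham fibroblast libraries in use, and neither was called.

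**Figure D1:**
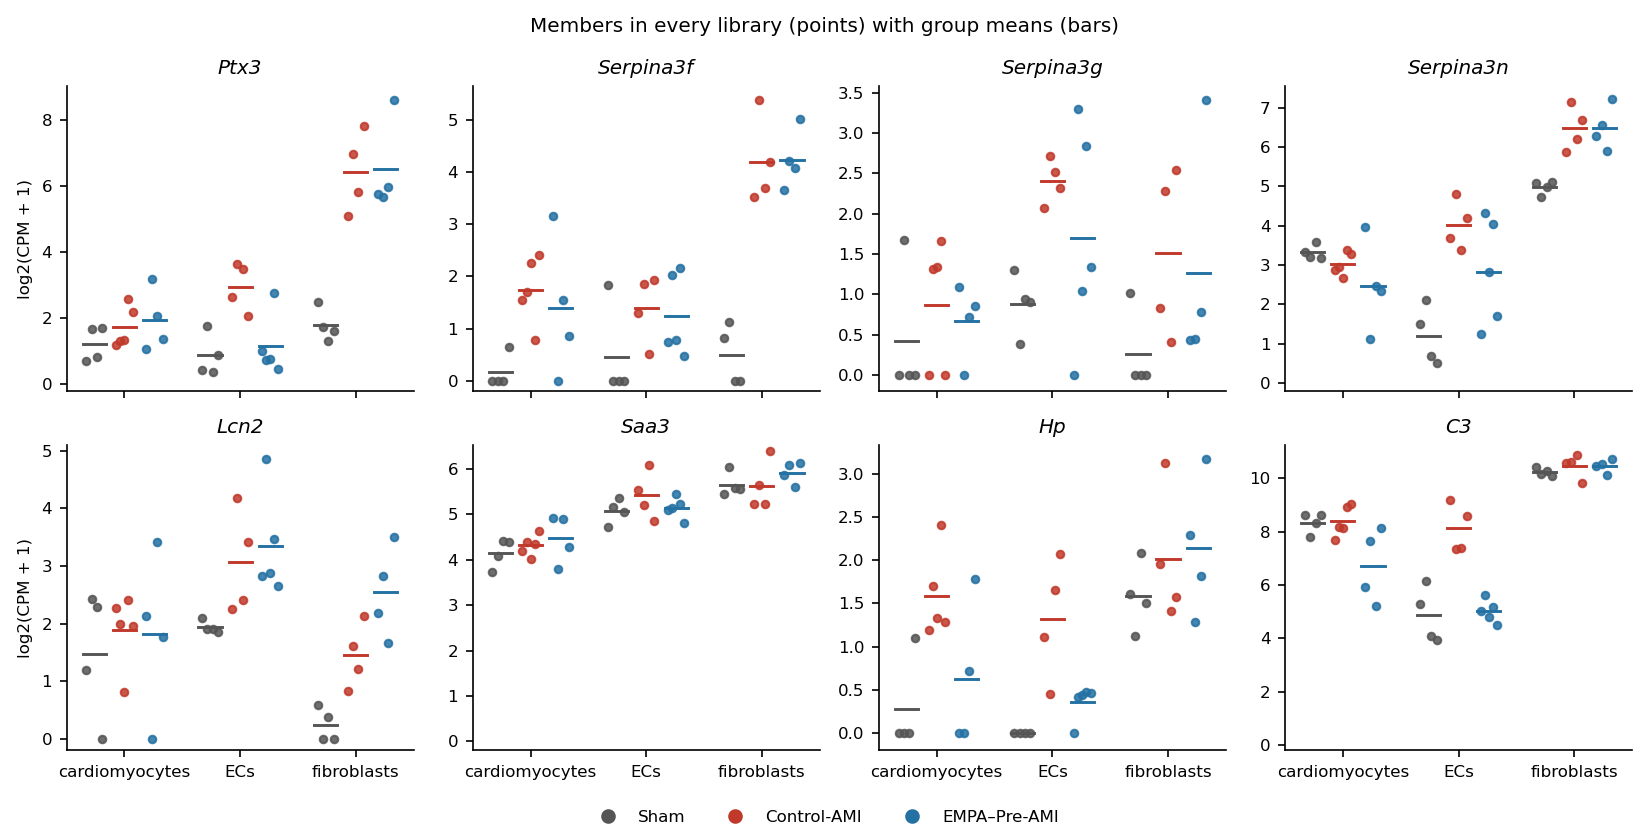
Each panel is 1 gene, with log2(CPM + 1) on the vertical axis, CPM scaled over all 38 libraries, the 3 populations on the horizontal axis, a point for each library and a bar at the mean of log2 values for each group. Ptx3 and Serpina3f separate Sham from both AMI groups in fibroblasts, C3 is high in the 4 Control-AMI EC libraries and within the Sham range in the 5 EMPA–Pre-AMI EC libraries, and the Saa3 groups overlap within each population.

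In fibroblasts, Ptx3 and Serpina3f went from near 0 in Sham to abundant in both AMI groups, and Serpina3n and Lcn2 were also higher. CPM from here on is scaled within each population. Ptx3 was at 6.76, 3.52, 2.17 and 3.07 CPM in the Sham libraries, 49.1, 184, 81.4 and 330.1 in Control-AMI and 79.4, 73.7, 90.1 and 576 in the EMPA–Pre-AMI group. Every AMI library exceeded every Sham library, and the highest of each AMI group was its replicate 4, the one on list 1. The means were 3.88 ± 2.0, 161 ± 126 and 205 ± 248 CPM (SD, n = 4 each), and the log2 fold changes from Sham were 5.34 in Control-AMI and 5.69 in the EMPA–Pre-AMI group. Without EMPA–Pre-AMI replicate 4 the latter was 4.36, and with list 4 alone, which leaves a single Sham library and 3 and 2 AMI libraries, they were 3.96 and 3.6. List 1 itself held Sham libraries at 2.17 to 3.52 CPM beside the 330.1 and 576 CPM of the AMI libraries.

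Serpina3f had 3, 4, 0 and 0 counts in the 4 Sham libraries, 40, 159, 36 and 61 in Control-AMI and 33, 49, 44 and 95 in the EMPA–Pre-AMI group. In CPM these were 1.13, 1.76, 0 and 0, then 15.3, 59.7, 17.4 and 25.1, then 17.1, 25.8, 23.2 and 46.2. The AMI groups lay apart from Sham and overlapped each other, with Control-AMI replicate 2 highest. The log2 fold changes from Sham were 5.30 in Control-AMI and 5.24 in the EMPA–Pre-AMI group, or 4.74 and 4.39 with list 4 alone. Serpina3g, its neighbor in the cluster and the gene with which it shares sequence, stayed low, with 4, 0, 0 and 0 counts in Sham, 3, 15, 1 and 17 in Control-AMI and 1, 1, 2 and 29 in the EMPA–Pre-AMI group. It was too low for the test in fibroblasts, its groups overlapped, and its highest value was in EMPA–Pre-AMI replicate 4.

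Serpina3n, the member of the cluster that was already expressed in Sham fibroblasts, was at 48.4, 38.3, 45.1 and 49.9 CPM there, 84.3, 205, 105.6 and 147 in Control-AMI and 113, 136, 86.4 and 215 in the EMPA–Pre-AMI group. The Sham libraries were close together and every AMI library lay above them, with a log2 fold change of 1.57 in Control-AMI. Lcn2 had 2, 0, 1 and 0 counts in Sham, 3, 8, 4 and 12 in Control-AMI and 10, 17, 6 and 31 in the EMPA–Pre-AMI group. The summed counts gave a ratio of 9.37-fold (exact 95% interval 2.88 to 48.3, counting error only) for Control-AMI against Sham. Both AMI groups lay above Sham and overlapped each other.

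The other members did not separate the groups in fibroblasts. Saa3 was at 62.7 to 96.8 CPM in Sham and 53.3 to 120.2 in Control-AMI, Hp at 1.76 to 4.77 and 2.42 to 11.3, and C3, whose level in fibroblasts was already high, at 1621 to 2018 and 1307 to 2784. Their log2 fold changes in Control-AMI were 0.02, 0.77 and 0.27. The values of Ptx3, Serpina3f, Serpina3n and Lcn2 did not overlap between Control-AMI and Sham, which was so, with Control-AMI higher, for 6.63% of the 10691 genes tested. Nothing is read from that share, since the members were chosen on this contrast. Of the 16 leukocyte markers, 10 to 14 were at 3 counts or fewer in every fibroblast library but Sham replicate 2, where 3 were. They were at 12.9 to 18.8 summed CPM in Control-AMI and 10.8 to 23.3 in the EMPA–Pre-AMI group, and 12.8, 321, 17.7 and 4.38 in Sham. Without Sham replicate 2, the log2 fold changes in Control-AMI were 5.30 for Ptx3, 6.09 for Serpina3f and 1.5 for Serpina3n. The summed CPM of 8 mural cell markers was 4093 in Control-AMI replicate 4, 594 to 977 in the other 3 Control-AMI libraries, 1045 to 2181 in EMPA–Pre-AMI and 676 to 1925 in Sham, and that of 8 mesothelial markers was 25.6 to 93.4, 58.6 to 153 and 38.5 to 84.8. Without Control-AMI replicate 4 Ptx3 had a log2 fold change of 4.73. The part of other cells in these values was not tested.

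**Figure D2:**
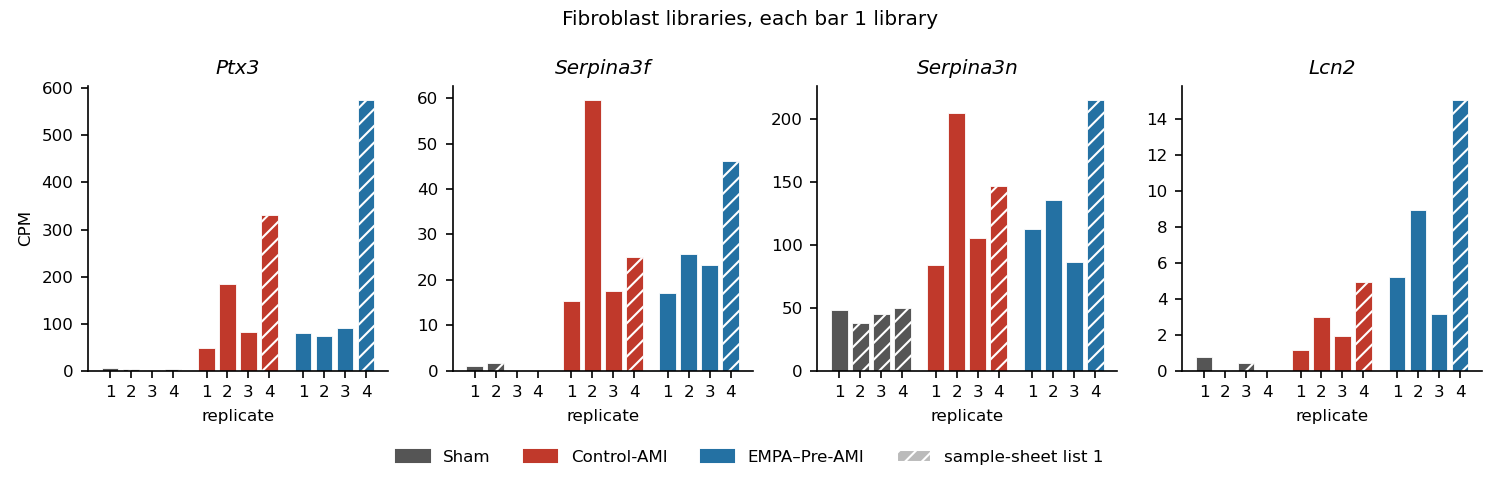
Each bar is the CPM of 1 fibroblast library, grouped as Sham, Control-AMI and EMPA–Pre-AMI with replicate numbers below and hatching for sample-sheet list 1. Sham bars are near 0 for Ptx3, Serpina3f and Lcn2 and at 38.3 to 49.9 CPM for Serpina3n, and all AMI bars are higher.

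Between EMPA–Pre-AMI and Control-AMI fibroblasts no member outside Ptx3 and Serpina3f showed a detectable difference. Of these 5 members tested, 0 were called by edgeR, 1 had an unadjusted p under 0.05 and 0 were called by DESeq2. Over all 10691 genes 0 were called (0.0%) and 170 (1.59%) had an unadjusted p under 0.05. The log2 fold change of Serpina3n was 0.02 (95% interval -0.57 to 0.62), that of Saa3 0.24 (-0.29 to 0.76) and that of C3 -0.04 (-0.48 to 0.40). Ptx3 and Serpina3f were picked on these Control-AMI libraries, and their log2 fold changes of 0.35 and -0.07 are a description. That of Ptx3 was -0.99 without EMPA–Pre-AMI replicate 4 and 0.97 without Control-AMI replicate 4. The member with the unadjusted p under 0.05 was Lcn2 (log2 fold change 1.54 ± 0.63 (SE), 95% interval 0.20 to 2.88, edgeR FDR 1).

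Against the Sham libraries, which are shared with the contrast that chose the members, EMPA–Pre-AMI fibroblasts had higher Serpina3n. Serpina3n rose from 45.4 ± 5.16 to 138 ± 55.7 CPM (SD, n = 4 each; log2 fold change 1.60 ± 0.29 (SE), edgeR FDR 0.00487). For Lcn2, which was kept by the filter through the AMI libraries alone, the summed counts were 64 against 3, a ratio of 27.9-fold (exact 95% interval 9.12 to 139, counting error only), and the edgeR FDR was 0.00487. Both were higher in 4 of 4 EMPA–Pre-AMI libraries than in any Sham library, as were 6.59% of all tested genes, and 3.65% were called higher. With list 4 alone, and so with 1 Sham library, the FDR was 0.617 for Serpina3n (log2 fold change 1.21) and 0.323 for Lcn2. Saa3 (log2 fold change 0.25 ± 0.25 (SE), edgeR FDR 0.6), Hp (log2 fold change 0.92 ± 0.62 (SE), edgeR FDR 0.421) and C3 (log2 fold change 0.23 ± 0.21 (SE), edgeR FDR 0.573) did not pass.

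In ECs, C3 was higher in Control-AMI than in Sham. Ptx3 and Serpina3n were also called higher, but few of their Sham libraries reached 10 counts and they were kept by the filter through the AMI libraries. C3 was at 61.4, 109, 25.8 and 22.9 CPM in Sham, 913, 256, 263 and 592 in Control-AMI and 49.5, 76.2, 43.5, 56.2 and 34.1 in the EMPA–Pre-AMI group. Every Control-AMI library lay above all libraries of the other groups, and EMPA–Pre-AMI lay within the Sham range. C3 rose from 54.8 ± 40.3 to 506 ± 313 CPM (SD, n = 4 each; log2 fold change 3.19 ± 0.58 (SE), edgeR FDR 0.00977). Ptx3 was at 0.59, 3.8, 0.487 and 1.39 CPM in Sham, 8.16, 18.1, 16 and 4.98 in Control-AMI and 1.61, 1.08, 1.13, 9.27 and 0.598 in the EMPA–Pre-AMI group. Sham and Control-AMI did not overlap (log2 fold change 2.81 ± 0.75 (SE), edgeR FDR 0.0251), and 1 EMPA–Pre-AMI library, replicate 4, lay within the Control-AMI range.

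Serpina3n was at 2.95, 5.23, 0.973 and 0.694 CPM in Sham, 18.6, 42.6, 14.7 and 26.8 in Control-AMI and 2.15, 30.3, 9.61, 24.7 and 3.59 in the EMPA–Pre-AMI group. Control-AMI was above Sham in 4 of 4 libraries (log2 fold change 3.29 ± 0.81 (SE), edgeR FDR 0.0288), and the EMPA–Pre-AMI libraries lay across both ranges. Serpina3g had 4, 1, 3 and 2 counts in Sham, 11, 15, 11 and 10 in Control-AMI and 0, 26, 3, 16 and 4 in the EMPA–Pre-AMI group, and Control-AMI did not overlap Sham but missed the threshold (log2 fold change 2.23 ± 0.83 (SE), edgeR FDR 0.123). Lcn2 was at 5.31, 4.28, 4.38 and 4.16 CPM in Sham, 5.9, 26.8, 6.68 and 14.9 in Control-AMI and 9.69, 44.3, 10.2, 16.1 and 8.38 in the EMPA–Pre-AMI group. All 9 AMI libraries exceeded the 4 Sham libraries, but Control-AMI missed the threshold (log2 fold change 1.56 ± 0.59 (SE), edgeR FDR 0.137). The FDR was 0.0436 when EMPA–Pre-AMI replicate 2 was left out of the fit.

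Saa3 was at 41.3 to 63.8 CPM in Sham, 43.6 to 104 in Control-AMI and 42.5 to 68.4 in the EMPA–Pre-AMI group, with overlapping groups (log2 fold change 0.38 ± 0.23 (SE), edgeR FDR 0.399 for Control-AMI against Sham). Hp held 0 counts in all 4 Sham libraries, 4, 1, 5 and 8 in Control-AMI and 0, 1, 1, 1 and 1 in the EMPA–Pre-AMI group. The Control-AMI mean was 1.29-fold a Sham level of 3 counts in its smallest library (2.08 CPM). Control-AMI replicates 1 and 2 (1.81 and 0.584 CPM) lay below that level. Serpina3f had 7, 0, 0 and 0 counts in Sham and 5, 7, 1 and 7 in Control-AMI, and neither gene was abundant enough for the test. Of the 6 members tested, 3 were called, all higher, and 5 lay above Sham with no overlap. Of all 10438 genes tested, 4.09% were called higher and 5.78% lay above Sham with no overlap. Ptx3, Serpina3g and Lcn2 held fewer than 10 counts in every Sham library, Serpina3n reached 10 in 1 of them, and all 4 genes were kept through the AMI libraries, so the members' counts are not read against these shares.

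The calls of Ptx3 and Serpina3n were lost when some single libraries were left out. The FDR of Ptx3 was 0.0674 without Control-AMI replicate 2, 0.0562 without replicate 3, and 0.0632, 0.0979 and 0.0721 without Sham replicates 1, 3 and 4. That of Serpina3n was 0.0635 without Control-AMI replicate 4, and 0.0606, 0.0979 and 0.0806 without the same Sham libraries. C3 was called without each library in turn. With only the 2 groups compared it missed the threshold (FDR 0.0518), whereas Serpina3n was called (FDR 0.00164). Within list 2, which held 3 libraries of Sham, 2 of Control-AMI and 3 of EMPA–Pre-AMI, the log2 fold change of C3 was 2.28 (FDR 0.193), that of Serpina3n 3.53 (FDR 0.183) and that of Ptx3 3.11 (FDR 0.0465).

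With EMPA, C3 was lower in ECs than in Control-AMI, and it was the member of the 6 tested that passed. C3 fell from 506 ± 313 CPM (SD, n = 4) to 51.9 ± 15.8 CPM (SD, n = 5; log2 fold change -3.28 ± 0.54 (SE), edgeR FDR 0.0107), and it was lower in 5 of 5 libraries. Among all tested genes 2.28% were called lower and 2.84% were lower with no overlap. Ptx3 had a log2 fold change of -2.11 with edgeR FDR 0.11, and the groups overlapped in replicate 4. Serpina3n (log2 fold change -0.86 ± 0.63 (SE), 95% interval -2.23 to 0.50, edgeR FDR 0.683), Serpina3g (log2 fold change -0.28 ± 0.67 (SE), 95% interval -1.66 to 1.11, edgeR FDR 0.937), Lcn2 (log2 fold change 0.39 ± 0.50 (SE), 95% interval -0.66 to 1.45, edgeR FDR 0.857) and Saa3 (log2 fold change -0.31 ± 0.22 (SE), 95% interval -0.77 to 0.14, edgeR FDR 0.647) did not pass, with intervals that hold both directions. Within list 2 the log2 fold change of C3 was -2.22 (FDR 0.846), and a term for the list gave -2.28 (FDR 0.301). Control-AMI replicates 1 and 4, with the highest C3, were the only ECs on list 4. For them the list and the group cannot be told apart.

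Between EMPA–Pre-AMI and Sham ECs, 0 of the 6 members were called by edgeR, 3 had an unadjusted p under 0.05 and 2 were called by DESeq2, while edgeR called 2.71% of all genes and 14.1% had an unadjusted p under 0.05. C3 showed no detectable difference from Sham (log2 fold change -0.09 ± 0.55 (SE), 95% interval -1.31 to 1.12, edgeR FDR 0.96). Lcn2 was higher in 5 of 5 EMPA–Pre-AMI libraries than in any Sham library (log2 fold change 1.96 ± 0.56 (SE), edgeR FDR 0.0766), and 3.98% of all tested genes did the same. The FDR of Lcn2 was 0.0358 without Control-AMI replicate 2, and its log2 fold change was 1.27 without EMPA–Pre-AMI replicate 2. Serpina3n (log2 fold change 2.43 ± 0.81 (SE), edgeR FDR 0.159) and Serpina3g (log2 fold change 1.96 ± 0.81 (SE), edgeR FDR 0.258) were the other members with an unadjusted p under 0.05. Lcn2, Serpina3n and Serpina3g were kept by the filter through the AMI libraries. The members' counts are therefore not read against the shares of all genes here. The rise of C3 in Control-AMI and its fall with EMPA share the Control-AMI libraries.

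**Figure D3:**
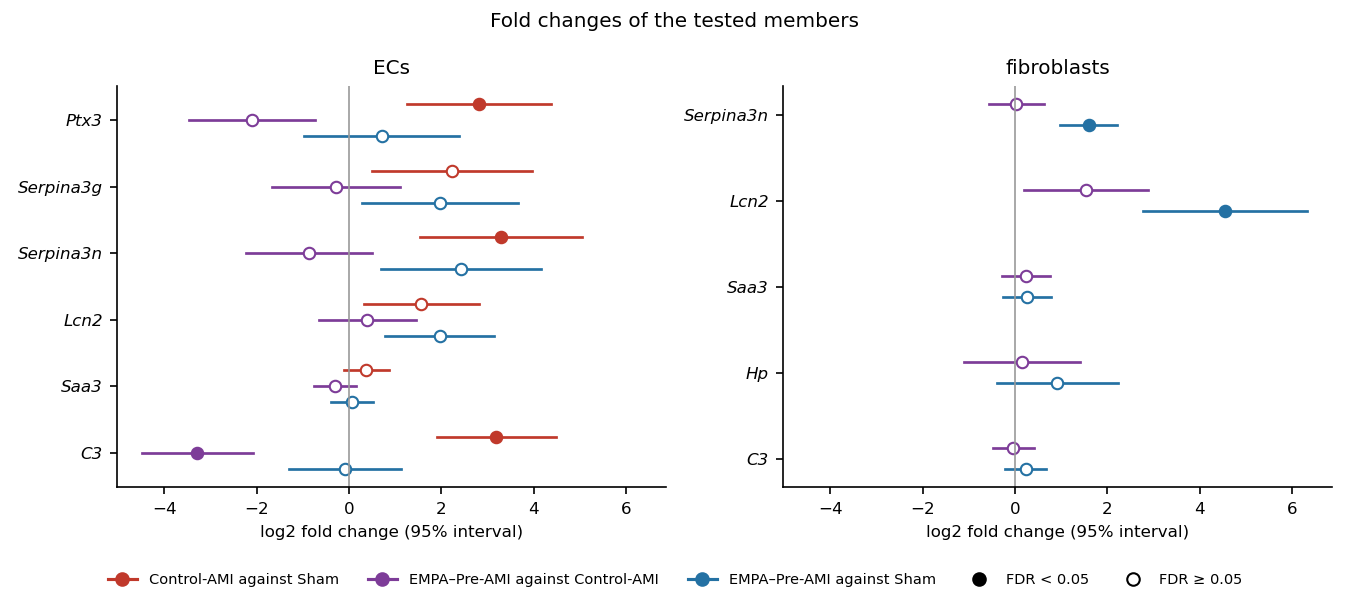
Log2 fold changes with 95% intervals for each member tested in ECs (left) and, leaving out the contrast that chose the members and the genes picked on it, in fibroblasts (right), with filled points for FDR under 0.05. In ECs C3, Serpina3n and Ptx3 are filled for Control-AMI against Sham and C3 for EMPA–Pre-AMI against Control-AMI, and in fibroblasts Serpina3n and Lcn2 are filled for EMPA–Pre-AMI against Sham, where Lcn2 had 3 counts in all 4 Sham libraries together and was kept by the filter through the AMI libraries.

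Fibroblast markers moved with C3 in ECs. Of the 11 markers at most 1 was at 3 counts or fewer in any EC library, 10 were tested, 7 were called higher in Control-AMI than in Sham and 8 lower in EMPA–Pre-AMI than in Control-AMI. Their summed CPM (on the scale of all libraries) was 1444, 2291, 1516 and 1869 in Sham, 6636, 2782, 2717 and 3922 in Control-AMI and 1737, 1907, 1461, 1329 and 1494 in the EMPA–Pre-AMI group. Control-AMI replicates 1 and 4 were highest both in these markers and in C3. They were also the only EC libraries on list 4. Mesothelial markers had sums of 35.6 to 54.4 in Sham, 62.5 to 96.1 in Control-AMI and 61.6 to 112 in the EMPA–Pre-AMI group. Of 9 endothelial markers, 2 were called lower in Control-AMI, and their sums were 8783 to 9587 in Sham, 4591 to 6212 in Control-AMI and 6259.7 to 9093 in the EMPA–Pre-AMI group. Per 100 counts of the fibroblast marker Dcn, picked after its values were seen, C3 had 2.86 to 10.4 counts in Sham ECs, 15.5 to 19.7 in Control-AMI ECs and 6.29 to 12.9 in EMPA–Pre-AMI ECs. In fibroblasts the same ratio was 9.61 to 14.7 in Sham, 8.47 to 22.7 in Control-AMI and 12.1 to 20.3 in the EMPA–Pre-AMI group. The part of fibroblast RNA in the C3 of ECs was not tested.

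Serpina3n and Ptx3 were not highest in the EC library richest in these markers. Serpina3n in ECs was highest in Control-AMI replicate 2 (42.6 CPM), where the marker sum was 2782, and reached 30.3 and 24.7 CPM in EMPA–Pre-AMI replicates 2 and 4, where the sums were 1907 and 1329, inside the Sham range or below it. Per 100 counts of Dcn, Serpina3n had 0.0867 to 0.499 counts in Sham ECs, 0.343 to 2.58 in Control-AMI and 0.412 to 5.67 in the EMPA–Pre-AMI group. In fibroblasts the same ratio was 0.296 to 0.352 in Sham, 0.627 to 1.45 in Control-AMI and 0.642 to 1.27 in EMPA–Pre-AMI. Ptx3 was highest in Control-AMI replicates 2 and 3, the pair with the lowest marker sums of their group. Per 100 counts of Dcn, Ptx3 had 0.0998 to 0.304 counts in Sham ECs, 0.15 to 1.1 in Control-AMI and 0.11 to 2.13 in EMPA–Pre-AMI. In fibroblasts this ratio was 0.015 to 0.0492, 0.365 to 2.14 and 0.605 to 3.41 in the same order. Leukocyte markers were at 25, 37.6, 411 and 44.1 summed CPM in Control-AMI and 14.7 to 21.2 in Sham, with 8 to 12 of the 16 at 3 counts or fewer in those libraries except Control-AMI replicate 3, where 3 were. Without Control-AMI replicates 1 and 3, the richest in fibroblast and leukocyte markers, the log2 fold changes from Sham were 2.93 for C3 (FDR 0.0319), 3.72 for Serpina3n (FDR 0.0546), 2.79 for Ptx3 (FDR 0.108) and 2.19 for Lcn2 (FDR 0.0445). That of C3 with EMPA was -3.02 (FDR 0.049). This fit kept Control-AMI replicate 4, the next richest in fibroblast markers (3922). The part of other cells in the Serpina3n, Ptx3 and Lcn2 of ECs was not tested.

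In cardiomyocytes 3 members, C3, Serpina3n and Saa3, were abundant enough for the test, and 0 were called by edgeR or by DESeq2 in any of the 3 comparisons. At an unadjusted p under 0.05 there were 0 for Control-AMI against Sham, 1 for EMPA–Pre-AMI against Control-AMI and 0 for Sham against EMPA–Pre-AMI. edgeR called 0.0655%, 0.0218% and 0.338% of all 9167 genes in the same order, and 2.72%, 25.0% and 18.2% had an unadjusted p under 0.05. C3 was at 172, 98.1, 138 and 174 CPM in Sham, 89.5, 131, 122, 225 and 232 in Control-AMI and 27.3, 103, 15.8 and 122 in the EMPA–Pre-AMI group. EMPA–Pre-AMI replicates 1 and 3 were low, the other libraries overlapped, and the difference from Control-AMI missed the threshold (log2 fold change -1.26 ± 0.52 (SE), edgeR FDR 0.161), with FDR 0.0443 without EMPA–Pre-AMI replicate 4. All Sham and Control-AMI cardiomyocyte libraries were on list 4, as was EMPA–Pre-AMI replicate 4 (122 CPM). Among cardiomyocytes, list 3 held EMPA–Pre-AMI replicates 1 and 3 alone, and list 2 held EMPA–Pre-AMI replicate 2 alone. For these libraries the list and the group cannot be told apart. The fibroblast marker sums were also lowest in replicates 1 and 3, at 1419, 3021, 941 and 3298 in the 4 EMPA–Pre-AMI libraries against 3102 to 4067 in Sham and 2679 to 5178 in Control-AMI. Per 100 counts of Dcn, C3 had 14.4 to 19 counts in Sham, 14.2 to 23.6 in Control-AMI and 10.4 to 16.6 in the EMPA–Pre-AMI group. The part of fibroblast RNA in these values was not tested.

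Serpina3n in cardiomyocytes was at 3.56 to 4.79 CPM in Sham and 2.3 to 4.33 in Control-AMI (log2 fold change -0.28 ± 0.43 (SE), 95% interval -1.18 to 0.62, edgeR FDR 1), and Saa3 at 5.35 to 8.9 and 6.57 to 10.7 CPM (log2 fold change 0.18 ± 0.28 (SE), 95% interval -0.39 to 0.76, edgeR FDR 1). Ptx3 held 1, 4, 1 and 4 counts in Sham, 2, 2, 2, 7 and 5 in Control-AMI and 1, 7, 5 and 2 in the EMPA–Pre-AMI group, and these groups overlapped. Serpina3f had 0, 0, 0 and 1 counts in Sham, 3, 3, 5, 1 and 6 in Control-AMI and 7, 0, 3 and 1 in the EMPA–Pre-AMI group, a ratio of 16.6-fold (exact 95% interval 2.62 to 692, counting error only) for Control-AMI against Sham. Hp had 0, 0, 0 and 2 counts in Sham and 2, 3, 2, 6 and 2 in Control-AMI, and Lcn2 and Serpina3g had at most 15 and 4 counts in any library.

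**Figure D4:**
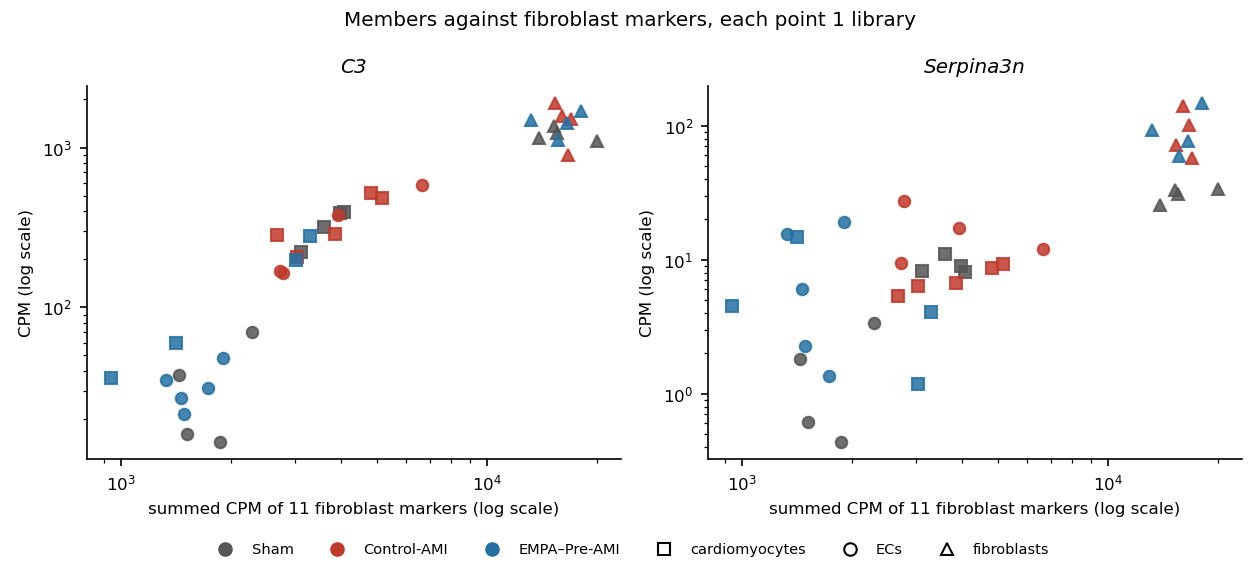
CPM of C3 (left) and Serpina3n (right) against the summed CPM of 11 fibroblast markers, both axes logarithmic and scaled over all 38 libraries, with a point for each library, colors for the groups and shapes for the populations. The C3 points of ECs and cardiomyocytes lie higher where the marker sum is higher, and the Serpina3n points of ECs spread from 0.434 CPM in a Sham library to 19 CPM in an EMPA–Pre-AMI library while both groups keep marker sums of 1329 to 2291.

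The change with AMI was compared between ECs and cardiomyocytes in the model of all libraries. Control-AMI minus Sham was larger in ECs for C3, by a log2 difference of 3.11 ± 0.67 (SE), edgeR FDR 0.0108, and for Serpina3n, by 3.6 ± 0.85 (SE), edgeR FDR 0.0184. Of the 8 members 2 were called, both higher, beside 1.46% of 12085 genes. Serpina3n had only 5, 11, 2 and 1 counts in the Sham EC libraries. In the EC model it was kept by the filter through the AMI libraries, and the count of 2 is not read against this share. The FDR of C3 was 0.0594 without EC Control-AMI replicate 1, and that of Serpina3n was 0.0694 and 0.0546 without EC Sham replicates 3 and 4. For Ptx3 the difference was 2.09 ± 1.67 (SE), edgeR FDR 0.823. Differences that hold the fibroblast contrast of Control-AMI and Sham were not tested, because the members were chosen on it. EMPA–Pre-AMI minus Control-AMI was lower in ECs than in fibroblasts for C3, with a log2 difference of -3.27 ± 0.66 (SE), edgeR FDR 0.00374, the 1 called member of 8 beside 2.01% of all genes called lower. For Ptx3 it was -2.48, given as a description. Ptx3 and Serpina3f were picked on the Control-AMI fibroblast libraries that enter this difference. Both are among the 8 in each count that involves fibroblasts, and neither was called. Between ECs and cardiomyocytes the difference in C3 was -2.0 ± 0.64 (SE), edgeR FDR 0.12. There 0 members were called by edgeR beside 0.993% of all genes, 1 had an unadjusted p under 0.05 and 1 was called by DESeq2. Between fibroblasts and cardiomyocytes 0 were called by edgeR or DESeq2 and 0 had an unadjusted p under 0.05, beside 0.00827% of all genes called.

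Inducers of the response were among the genes called higher in both sorted populations. The gene lists used here and below were chosen with earlier results of these data known. Their counts are therefore not read against the shares or medians of all genes. Of 24 genes for cytokines, their receptors and the transcription factors named above, 18 were tested in ECs, 8 were called higher in Control-AMI than in Sham and 0 lower, with a median log2 fold change 0.49 against -0.02 over all tested genes, of which 4.09% were called higher. Il6, the main inducing cytokine, had 0 counts in all 4 Sham EC libraries and 12 to 44 in Control-AMI, and it is among the 8 although it was kept by the filter through the AMI libraries. Cebpb, which encodes the factor C/EBP-beta, had a log2 fold change of 3.01 (FDR 0.0035), and Socs3, the feedback inhibitor of STAT3 signaling, of 2.22 (FDR 0.0157). Against Control-AMI, EMPA–Pre-AMI had 0 inducers higher and 1 lower, the receptor subunit Il6ra at -1.40 (FDR 0.0418), and against Sham 7 were higher, among them Cebpb at 3.03 (FDR 0.00322) and Socs3 at 2.26 (FDR 0.0192). Il6 had 9 to 45 counts in EMPA–Pre-AMI ECs.

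In fibroblasts, 10 of the 18 inducers tested rose from Sham to EMPA–Pre-AMI and 0 fell (median log2 fold change 0.88 against -0.03 over all tested genes, of which 3.65% rose), with Il6 at 4.53 (FDR 0.00685), Socs3 at 2.36 (FDR 0.0451) and Cebpb at 2.03 (FDR 0.0487). Of 16 other target genes of NF-kappaB and STAT3 tested, 6 were higher and 0 lower (median log2 fold change 1.13 against -0.03 over all tested genes), led by the chemokine Cxcl5 at 4.14 (FDR 0.0407), the hyaluronan synthase Has1 at 3.86 (FDR 0.00246) and Bcl3, a nuclear inhibitor of the NF-kappaB family, at 2.66 (FDR 0.0106). The Sham fibroblast libraries are shared with the contrast that chose the members. Between EMPA–Pre-AMI and Control-AMI fibroblasts, 0 inducers and 0 of these targets were called by edgeR or DESeq2, and 1 inducer and 0 targets had an unadjusted p under 0.05. In ECs 3 of 14 such targets were higher in Control-AMI, Timp1 at 3.35 (FDR 0.00504), Il4ra at 1.80 (FDR 0.0101) and Nfkbia at 1.02 (FDR 0.00366). EMPA–Pre-AMI had 2 higher than in Sham, Il4ra at 2.05 (FDR 0.00657) and Nfkbia at 1.39 (FDR 0.000167), and 0 called against Control-AMI (0 at an unadjusted p under 0.05, 1 by DESeq2). Cardiomyocytes had 0 inducers and 0 targets called in Control-AMI by edgeR or DESeq2, with 5 and 3 at an unadjusted p under 0.05, and in EMPA–Pre-AMI against Sham 1 inducer was higher, Cebpd at 1.94 (FDR 0.0214).

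Some other complement genes were called in ECs in the direction of C3. Of 22 complement genes and regulators found, 10 were tested in ECs and 3 were higher in Control-AMI than in Sham, beside 4.09% of all genes, the C1 inhibitor gene Serping1 at 2.54 (FDR 0.02), C4b, the gene of component C4, at 2.53 (FDR 0.00262) and the C1r gene C1ra at 2.14 (FDR 0.00091). With EMPA 4 were lower and 0 higher (median log2 fold change -0.80 against 0.02 over all tested genes, of which 2.28% were lower), led by Serping1 at -2.86 (FDR 0.0148), C4b at -2.84 (FDR 0.00206) and C1ra at -2.18 (FDR 0.00206). On the CPM scale of each population, Serping1 was at 1036 to 2160.2 CPM in Sham fibroblasts against 23.4 to 84.6 in Sham ECs. C1ra was at 398 to 510.3 against 15.6 to 31.4 CPM. These values are not on the common scale of all 38 libraries and are given as a description. In EMPA–Pre-AMI fibroblasts against Sham, 0 of 13 tested were called by edgeR, 2 had an unadjusted p under 0.05 and 1 was called by DESeq2.

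Of 28 acute phase proteins known mainly from the plasma, 18 never exceeded 3 counts in any library of a population, in each of the 3 populations, and 3 in cardiomyocytes, 4 in ECs and 3 in fibroblasts were tested. Lbp, the lipopolysaccharide binding protein, was higher in Control-AMI ECs at 1.00 (FDR 0.0489), and Ahsg, the gene of fetuin-A, was higher in fibroblasts of EMPA–Pre-AMI than of Sham at 2.12 (FDR 0.0315). Of the 11 genes of the Serpina3 cluster, 1 was tested in cardiomyocytes, 2 in ECs and 3 in fibroblasts, the third being Serpina3c at 5.72 to 11.6 CPM in Sham, 8.05 to 22.9 in Control-AMI and 3.69 to 14.2 in EMPA–Pre-AMI fibroblasts. Of 19 genes for receptors and ligands of the members, 2, 3 and 6 were tested in the same order, and edgeR called 0 of them in ECs for Control-AMI against Sham (0 at an unadjusted p under 0.05, 1 by DESeq2) and 0 in fibroblasts for EMPA–Pre-AMI against Sham (2 and 0).

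Over the 12 fibroblast libraries, the genes most like each member in log2 CPM were found among 10690 others by Pearson correlation, given as a description because the libraries share their depth and groups. Ptx3 was most like Adamts4 (r = 0.99), Rsl1d1 (r = 0.98) and Prg4 (r = 0.98), and Serpina3f most like Arid5a (r = 0.98), Mt1 (r = 0.98) and Mt2 (r = 0.97). Serpina3n was most like Prg4 (r = 0.97), Slc10a6 (r = 0.97) and Eif1a (r = 0.96), and Lcn2 most like Fam110c (r = 0.97), Tfam (r = 0.96) and Birc2 (r = 0.94). The members that did not separate the groups had lower values, with C3 most like Sap18b (r = 0.88), Ptcd1 (r = 0.88) and Zfyve9 (r = 0.86), Saa3 most like Sugct (r = 0.93), Zfp869 (r = 0.87) and Rcc1l (r = 0.85) and Hp most like Khdrbs3 (r = 0.80), Rpf2 (r = 0.80) and Fam78b (r = 0.80).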

How the data were processed

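RNA of the 3 populations was sequenced as 3′ libraries. Per the labels and the study's methods, the authors trimmed reads with cutadapt 2.8, assigned them with Salmon to GRCm39 (Ensembl 106) and deposited the estimated counts of every gene as they came from Salmon. Whether molecular identifiers were used is not given in the sources used here. The estimated counts were rounded. Each population was fitted as 3 groups in edgeR 4.0.16 (R 4.3.3) with filterByExpr (minimum count 10), TMM factors and robust quasi-likelihood tests, and FDR is the Benjamini-Hochberg value over all genes tested (threshold 0.05). A model of all 38 libraries with 9 groups gave the comparisons of populations. CPM are counts scaled by TMM library sizes. Correlations used a prior count of 2. Genes named beside the members are the 3 called genes of each list with the largest fold change. Markers and alternatives (DESeq2 1.42.0, RLE factors, no robust estimation, no filter, only the groups compared, a replicate block, sample-sheet lists, leaving out libraries) follow the same fits. List 4 of fibroblasts alone, and ECs without Control-AMI replicates 1 and 3, were chosen after seeing the data. The members and lists were chosen with earlier results of these data known. Promoters are windows before canonical transcript starts. The fits were checked on simulated data.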

Additional observations from a re-analysis of the deposited data

Results flagged for a closer look

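Highest libraries stood apart from the rest of their group in 3 of the 48 groups of 4 or 5 libraries checked for the 8 members, where chance flags about 1 in 20 groups. Ptx3 was at 9.27 CPM in EMPA–Pre-AMI replicate 4 of ECs, with the other 4 libraries of that group at 0.598 to 1.61 CPM. Ptx3 was at 576 CPM in EMPA–Pre-AMI replicate 4 of fibroblasts, with the other 3 at 73.7 to 90.1 CPM. Lcn2 was at 44.3 CPM in EMPA–Pre-AMI replicate 2 of ECs, with the other 4 at 8.38 to 16.1 CPM.

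Differences of effects between populations stood out for C3 and Serpina3n by the edgeR quasi-likelihood test of the difference itself. For Control-AMI minus Sham in ECs against cardiomyocytes the log2 difference was 3.11 for C3 (FDR 0.0108) and 3.6 for Serpina3n (FDR 0.0184). Serpina3n had only 1 to 11 counts in the Sham EC libraries. For EMPA–Pre-AMI minus Control-AMI in ECs against fibroblasts it was -3.27 for C3 (FDR 0.00374). Fibroblast marker sums in ECs moved with both C3 values, and their part in them was not tested.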

How the results depend on the processing

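Counts of called members depended most on how ECs were fitted. In Control-AMI against Sham ECs the count was 3, and it was 1 with list 2 alone, with only the 2 groups compared and with a term for the list, and 1 to 4 when single libraries were left out. In ECs with EMPA against Control-AMI the count was 1, and it was 2 with no filter, 0 with list 2 alone, 0 with a term for the list, 0 with a replicate block and 1 to 1 without single libraries. For EMPA–Pre-AMI against Sham ECs the count was 0, and it was 2 by DESeq2, 1 with no filter, 1 with only the 2 groups compared, 2 with a replicate block, 1 without Control-AMI replicates 1 and 3, and 0 to 1 without single libraries. For EMPA–Pre-AMI against Sham fibroblasts the count of 2 became 0 with list 4 alone and 1 with only the 2 groups compared. In cardiomyocytes the count of 0 with EMPA was 0 to 1 without single libraries. The count of 2 for Control-AMI minus Sham in ECs against cardiomyocytes was 1 with no filter and 1 to 2 without single libraries, the count of 0 for EMPA–Pre-AMI minus Control-AMI in the same populations was 1 by DESeq2, and the count of 5 for Sham fibroblasts against cardiomyocytes was 3 to 5. Saa3 in fibroblasts, at 0.02 for Control-AMI against Sham, turned to -0.051 with list 4 alone and -0.035 with a replicate block, and ranged from -0.30 to 0.17 without single libraries. List 2 or list 4 alone leaves fewer libraries, and the cause of the other changes was not tested. Of the other values under alternatives, 269 counts and 2141 single values kept their side of the threshold and, where called, their direction, while 119 single values with no test moved, 33 lost their call and 14 gained one. Some values called in neither setting changed sign.

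Libraries of different groups that share a replicate number did not all deviate together. Over 12 pairs each, r was -0.09 to 0.17 for cardiomyocytes, -0.06 to 0.21 for ECs and -0.11 to 0.48 for fibroblasts, where the 3 pairs of replicate 4, all on list 1, had 0.28, 0.28 and 0.48. As not every pair was above 0.1, the numbers were not taken to pair the libraries. Under the replicate block the fold change of C3 in ECs with EMPA was -3.11 (FDR 0.056). Depth limits Serpina3f and Serpina3g in every population, Lcn2 in fibroblasts and Hp in ECs and cardiomyocytes, which had at most 7 counts in any Sham library. The exact intervals of count ratios cover counting error only.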
